A study of Mus musculus with 12 samples.

Results

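A set of 10 mouse genes was followed across tissues, plates and single cells. They were grouped as contractile and vascular genes found in stem cells of the AGM and nearly absent from those of fetal liver or bone marrow. The name is loose, since F10 and Mogat2 are best known from liver and gut, and Cnn3 was also frequent in fetal liver. The 10 genes were Acta2, Tagln, Cnn3, Crip2, Edn1, Ddah1, Tspan18, F10, Nrep and Mogat2. They were chosen by symbol from 22307 gene symbols because of their levels in the same libraries. Their tissue differences are therefore given as a description and were not tested. All 10 symbols occurred in the tables of both AGM plates, while the other plates listed between 1 and 9 of them.

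Single cells labelled as haematopoietic stem cells (HSC) came from the AGM (aorta-gonad-mesonephros, a part of the embryo in which aortic endothelium gives rise to stem cells of the blood), from fetal liver and from bone marrow. They belong to a series on the DARLIN mouse, a line whose cells carry an editable lineage barcode, and their RNA was read with Camellia-seq, which profiles expression, DNA methylation, chromatin accessibility and lineage in one cell. The labels of these plates give no genotype, strain, treatment, age or sort markers. The titles hold an origin code, which is the same for both AGM plates, while fetal liver has 2 codes (the first 3 plates and the last 2) and so has bone marrow, split in the same way. For bone marrow plates 4 and 5 only the title names the tissue. Whether a code stands for 1 animal or a pool is not given, so AGM had no measured spread between origins, and the spread between plates may be technical.

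Contractile cells move filaments of actin past myosin, and proteins such as transgelin, calponins and tropomyosins bind those actin filaments. Smooth muscle is the best known site of Acta2 and Tagln, but endothelial cells also carry many actin-binding proteins. Endothelium controls the tone of neighbouring muscle by releasing endothelin, which contracts it, and nitric oxide, which relaxes it. In the AGM, endothelial cells of the aorta turn into blood cells, so markers of both kinds can meet in 1 cell during that passage.

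AGM gave 143 kept cells, fetal liver 454 and bone marrow 423, out of 12 plates of 96 wells, with plate totals of 2596681 to 15977740 unique molecular identifiers (UMIs, each meant to stand for 1 RNA molecule). AGM plate 2 gave 48 kept cells and plate 1 gave 95. Median UMIs per cell were 159228 (AGM), 54303 (fetal liver) and 59558 (bone marrow), so an RNA was easier to find in an AGM cell. Shares of cells are therefore given over all UMIs and after thinning each cell to 20000 UMIs, which left out 2 AGM, 35 fetal liver and 31 bone marrow cells. Plate levels are CPM, the gene's part of all UMIs of the plate's kept cells in the usual unit. Tissue levels use library sizes scaled by TMM and are averaged over origins. Ratios are those of tissue levels, except where the lower tissue had at most 3 UMIs. There UMIs and scaled library sizes were pooled over origins, so such ratios differ from those of the tissue levels. All 96 well barcodes were used in all 12 plates.

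Each of the 10 genes had a higher CPM in both AGM plates than in any fetal liver or bone marrow plate. This pattern is what the genes were chosen for. Among all 15472 genes of the edgeR test, 1.91% were called lower in fetal liver than in AGM and 3.63% lower in bone marrow than in AGM. By tissue level, 9 of the 10 were at least 10-fold above both other tissues, and Cnn3, at 2.01 times its fetal liver level, was not. Such a pattern was uncommon: of 5888 genes with at least 20 CPM in AGM, 76 (1.29%) were at least 10-fold above both other tissues, 8 of the members among them. Tagln lay under that level in AGM. These limits of 20 CPM and 10-fold were set after the values had been seen. Fetal liver and bone marrow plates did not overlap for Cnn3 and Nrep, which were higher in every fetal liver plate. For the other 8 genes the plates of those tissues overlapped, so their order was not resolved.

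**Figure D1:**
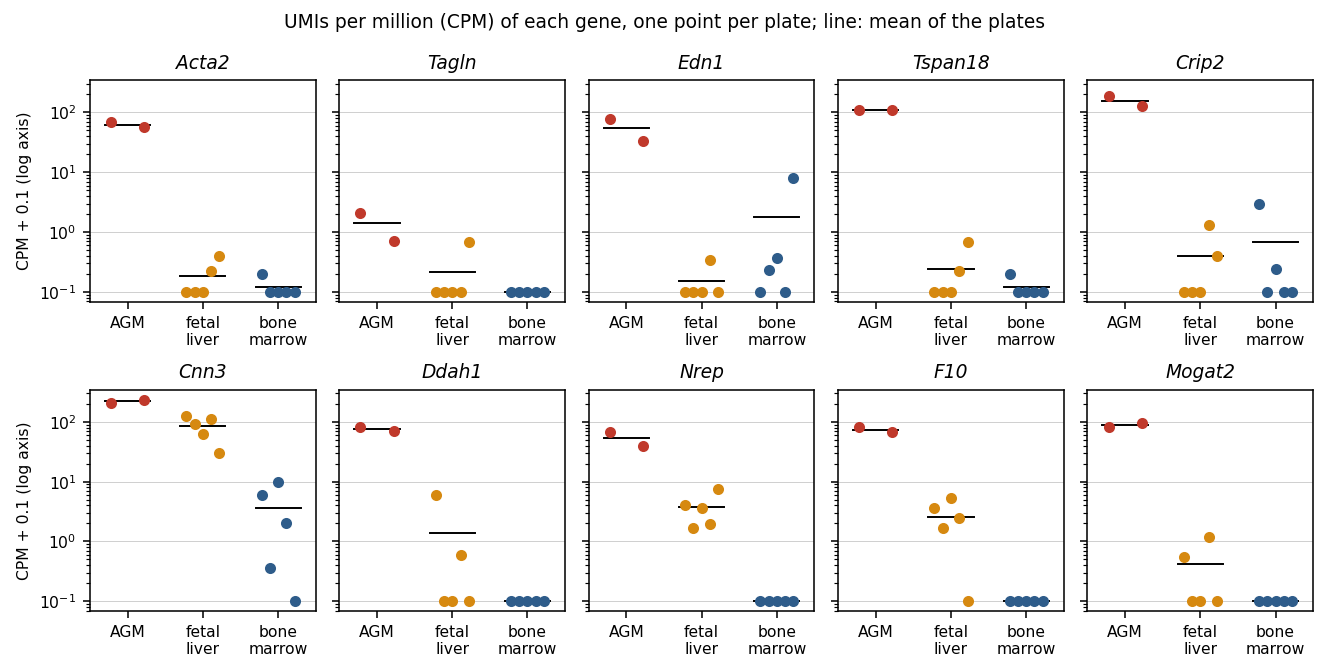
CPM of the 10 genes in each plate on a log axis, with 0.1 added so that plates without a UMI show at the bottom; each point is a plate and each line the mean of a tissue's plates. AGM plates lie highest for each gene, though Tagln reaches only 0.599 to 2.0 CPM there; Cnn3 stays between 29.8 and 125.2 CPM in fetal liver and 5 genes have no UMI in any bone marrow plate.

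Acta2 encodes smooth muscle alpha-actin, a filament protein of contractile cells (chr19:34241090-34255590, minus strand, GRCm38, protein-coding). Its CPM was 69.3 in AGM plate 1 and 56.2 in AGM plate 2. Fetal liver plates 1 to 5 gave 0, 0, 0, 0.123 and 0.295 CPM. Bone marrow plates 1 to 5 gave 0.101, 0, 0, 0 and 0 CPM. Both AGM plates were high, and outside AGM the gene amounted to 2 UMIs in fetal liver and 1 UMI in bone marrow, each in a different cell. Its level in AGM was 774 times that in fetal liver (95% counting interval 213.9 to 6397) and 1718 times that in bone marrow (307.9 to 67903). At least 1 UMI was found in 66.4% of AGM cells (95 of 143; exact 95% interval 58.1 to 74.1), against 0.441% in fetal liver and 0.236% in bone marrow. Thinned cells gave 30.5% in AGM, with 30.5% in plate 1 and 30.4% in plate 2. The level was unequal among these cells: 28 held 1 UMI, 41 held 2 to 9, and 26 held at least 10, up to 180. The 10 richest cells carried 61.6% of all Acta2 UMIs in AGM.

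The sequence before the start of Acta2 is shown because many contractile genes carry a CArG box there (CC, a run of A or T, then GG), to which serum response factor binds, and this one holds near matches to it. Beside it stands the same stretch of Edn1, the vascular gene described later. Both are the 250 bases before the start given by RefSeq on GRCm38.p6, 5′ to 3′, from chr19:34255374-34255623 (minus strand) and chr13:42301226-42301475 (plus strand). For Acta2 the start given by GENCODE lies within that window. Capitals mark matches to a CArG box on either strand with at most 1 mismatch.
Acta2: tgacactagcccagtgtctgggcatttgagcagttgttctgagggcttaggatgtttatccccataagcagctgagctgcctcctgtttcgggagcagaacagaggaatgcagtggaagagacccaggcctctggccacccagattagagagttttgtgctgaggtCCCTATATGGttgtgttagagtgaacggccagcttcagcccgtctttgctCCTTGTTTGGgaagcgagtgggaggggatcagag
Edn1: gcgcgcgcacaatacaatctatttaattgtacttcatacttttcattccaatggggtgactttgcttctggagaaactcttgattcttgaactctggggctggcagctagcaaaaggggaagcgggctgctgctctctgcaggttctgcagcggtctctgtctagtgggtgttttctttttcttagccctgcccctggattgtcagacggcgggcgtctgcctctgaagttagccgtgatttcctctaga
Acta2 held 2 such matches, at bases 84 to 75 and 34 to 25 before the start, each with 1 mismatch, and no match without mismatch. Edn1 held none. Of 32851 RefSeq windows of this length, 18.6% held a match with at most 1 mismatch and 1.47% one without mismatch. RefSeq windows of 6 of the 10 genes were searched (Acta2, Edn1, Cnn3, Ddah1, F10 and, with 2 starts, Crip2). Other motifs were searched on both strands and found in none of these windows. The TATA box (TATAAA) was in 12.4% of all windows. The AP-1 site (TGACTCA) was in 4.46% of them. The GATA site (AGATAA) was in 9.99%. A match is a match of letters, and binding was not measured.

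Tagln encodes transgelin, an actin-binding protein of smooth muscle (chr9:45929619-45936058, minus strand). It gave 2.0 CPM in AGM plate 1 and 0.599 CPM in plate 2. In fetal liver, plates 1 to 4 had no UMI and plate 5 had 0.591 CPM from 2 UMIs. No bone marrow plate held a UMI. AGM plate 2 thus lay barely above fetal liver plate 5. The whole AGM signal was 37 UMIs in 13 of 143 cells (9.09%, exact interval 4.93 to 15.0), at most 7 UMIs in a cell. Against fetal liver the ratio was 18.2 (interval 4.68 to 155.5), and against bone marrow it was at least 13.4-fold higher, with a floor of 3 UMIs over that tissue. After thinning, 4.26% of AGM cells had a UMI, all of them in plate 1. Tagln overlaps Pcsk7 (437 AGM UMIs) and the antisense gene Gm48529 (17 AGM UMIs). The strand setting of the counting is not known, so reads of these genes may have been shared.

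Cnn3 encodes calponin 3, an actin-binding protein found beyond muscle (chr3:121426497-121458207, plus strand). Its AGM plates gave 207.9 and 234.5 CPM. Fetal liver plates 1 to 5 gave 125.2, 90.4, 62.7, 112.2 and 29.8 CPM, and bone marrow plates 5.86, 0.265, 9.78, 1.93 and 0 CPM. The plates of the 3 tissues did not overlap. AGM had 2.01 times the level of fetal liver and 61.4 times that of bone marrow. Detection followed the same order, with a UMI in 95.1% of AGM cells, 68.1% of those from fetal liver and 2.60% of those from bone marrow, or 83.0%, 57.0% and 1.53% after thinning. Cnn3 was thus a gene of both fetal tissues, and the bone marrow signal came from few cells: 57 of its 136 UMIs sat in 1 cell. Among AGM cells it was the most even of the 10, with 23.7% of UMIs in the 10 richest cells. Thinned AGM plates gave 78.9% and 91.3%.

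Crip2 encodes a small LIM-domain protein named cysteine-rich protein 2 that is abundant in vascular cells (chr12:113140236-113145506, plus strand). It had 185.4 and 130.0 CPM in the AGM plates. Fetal liver plates 1 to 3 had no UMI, plate 4 had 1.23 CPM and plate 5 had 0.295 CPM. Bone marrow plates gave 2.83, 0, 0.138, 0 and 0 CPM. The values outside AGM were those of single cells: 9 of 11 fetal liver UMIs and 27 of 29 bone marrow UMIs sat in 1 cell each. The tissue ratio was 296.5 to fetal liver and 250.6 to bone marrow. In AGM 92.3% of cells had a UMI (56.7% thinned), against 0.661% in fetal liver and 0.709% in bone marrow. Its AGM counts ran from 18 cells with 1 UMI to 62 cells with at least 10, and up to 200 UMIs in a cell.

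Edn1 encodes endothelin-1, the peptide ligand by which endothelium contracts vascular muscle (chr13:42301476-42307990, plus strand). AGM plate 1 gave 77.4 CPM and plate 2 gave 33.5 CPM. Only plate 4 of fetal liver had a value, 0.246 CPM from 2 UMIs. Bone marrow plates gave 0, 0.133, 0.276, 0 and 8.02 CPM. The plates of AGM differed more for Edn1 than for most members, and the highest bone marrow plate owed its value to 28 UMIs in 1 cell. The tissue ratio was 744 to fetal liver (counting interval 205.6 to 6150) and 20.3 to bone marrow. A UMI was found in 53.1% of AGM cells, and after thinning in 27.4% of plate 1 and 10.9% of plate 2. Expression was concentrated: 35 cells had 1 UMI, 23 had at least 10, up to 162, and 65.0% of the UMIs lay in the 10 richest cells.

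Ddah1 encodes an enzyme that breaks down asymmetric dimethylarginine, an inhibitor of nitric oxide synthases (chr3:145758675-145894277, plus strand). Its AGM plates gave 83.4 and 69.2 CPM. Fetal liver plate 1 gave 5.93 CPM, plate 4 gave 0.491 CPM and the others had no UMI, and no bone marrow plate had one. In fetal liver 39 of 43 UMIs sat in 1 cell of plate 1. The level in AGM was 49.4 times that in fetal liver and at least 693.6-fold higher than in bone marrow. It was found in 58.0% of AGM cells (36.2% thinned), 0.881% of fetal liver cells and 0 of 423 bone marrow cells, which allows a share of up to 0.868% by the exact interval. In AGM 42 cells held at least 10 UMIs while 60 of 143 cells held none.

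Tspan18 encodes a tetraspanin, one of a family of membrane proteins that span the membrane repeatedly and organise partner proteins, and it is best known from endothelium (chr2:93201760-93334505, minus strand). Its AGM plates agreed closely, at 111.0 and 111.3 CPM. Fetal liver plates 4 and 5 gave 0.123 and 0.591 CPM and the others had no UMI. Bone marrow plate 1 gave 0.101 CPM from 1 UMI and the others had none. The ratio was 884.5 to fetal liver (counting interval 302.3 to 4292) and 2945 to bone marrow (528.1 to 116356). It was found in 91.6% of AGM cells (63.8% thinned), and 72 cells had at least 10 UMIs. The 4 positive cells outside AGM had 1 UMI each.

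F10 encodes coagulation factor X, the precursor of the protease that turns prothrombin into thrombin, classically a liver product (chr8:13037308-13056676, plus strand). AGM plates gave 80.7 and 68.3 CPM. Fetal liver plates 1 to 5 gave 3.50, 1.57, 5.16, 2.33 and 0 CPM, and bone marrow had no UMI. The tissue ratio was 25.8 to fetal liver and at least 675.1 to bone marrow. A UMI was present in 79.7% of AGM cells (42.6% thinned) and in 10 of 454 fetal liver cells (2.20%). Of the 8 hepatocyte markers checked, Afp, Ttr, Fgb, Ahsg and Serpina1a were at 0 in AGM. Alb had 1 UMI there, while Apoa1 was found in 30 of 143 AGM cells (21.0%, against 5.29% in fetal liver) and Apoa2 in 10. The list summed to 7.43 to 20.2 CPM in the AGM plates and 10.7 to 35.5 CPM in those of fetal liver, and its part in the F10 level was not tested.

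Nrep encodes a neuronal regeneration-related protein (chr18:33437019-33464029, minus strand). Its AGM plates gave 68.5 and 39.7 CPM. Fetal liver plates gave 3.95, 1.57, 3.51, 1.84 and 7.39 CPM, and bone marrow had no UMI. Unlike most members Nrep was thus found in all 5 fetal liver plates, in 41 of 454 cells (9.03%, or 5.73% thinned), of which 26 had 1 UMI. AGM had 15.2 times the fetal liver level and at least 517.9 times that of bone marrow. In AGM 74.8% of cells had a UMI (34.8% thinned).

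Mogat2 encodes an acyltransferase that makes diacylglycerol from monoacylglycerol, known from fat absorption in the gut (chr7:99219084-99238619, minus strand). AGM plates gave 80.9 and 94.4 CPM. Fetal liver plates 1 and 4 gave 0.456 and 1.11 CPM, the others had no UMI, and bone marrow had none. All 12 fetal liver UMIs came from 2 cells, 1 of them with 9. AGM exceeded fetal liver 151.3-fold and bone marrow at least 755.7-fold. In AGM 83.9% of cells had a UMI (55.3% thinned), evenly in plates 1 (55.8%) and 2 (54.3%). The antisense gene Gm45012, which overlaps it, had 0 AGM UMIs.

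**Figure D2:**
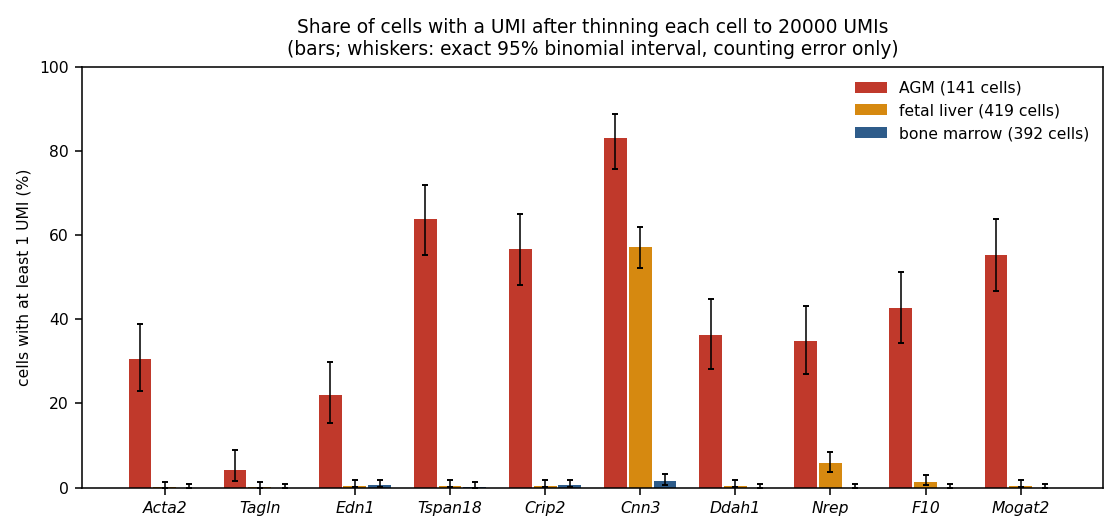
Percentage of cells with at least 1 UMI of each gene after thinning to 20000 UMIs, with exact 95% binomial intervals that cover counting error only. AGM shares run from 4.26% for Tagln to 83.0% for Cnn3, while outside AGM only Cnn3 (57.0%) and Nrep (5.73%) in fetal liver exceed 2%.

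The members were found together in AGM cells. Because they were chosen for their levels in AGM, many per AGM cell and few per cell elsewhere follow from that choice. Pairs are set beside the product of their single shares further below. An AGM cell held a median of 7 of the 10 genes, 4 cells held all 10, and 1 cell held none. At least 5 were present in 130 of 143 cells (90.9%, exact interval 85.0 to 95.1), with 89.5% in plate 1 and 93.7% in plate 2. No fetal liver or bone marrow cell reached 5, which allows a share of up to 0.809% and 0.868%. The AGM count fell with depth: after thinning the median was 4 genes and 44.7% of cells held at least 5 (48.4% in plate 1 and 37.0% in plate 2), still with 0 cells outside AGM. With at least 2 UMIs asked of each gene, 74.8% of AGM cells held 5 or more. Leaving Cnn3 aside, any member was found in 99.3% of AGM cells, against 14.8% for fetal liver and 1.89% for bone marrow, or 94.3%, 9.79% and 1.28% after thinning. Only 2 fetal liver cells and 1 bone marrow cell held more than 1 member besides Cnn3. Within the AGM plates the number of members per cell went with the cell's UMI total over all UMIs (Spearman's rho 0.36 and 0.43 over 95 and 48 cells), and after thinning the coefficients were -0.16 and -0.26. These are descriptions over cells that share a plate.

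**Figure D3:**
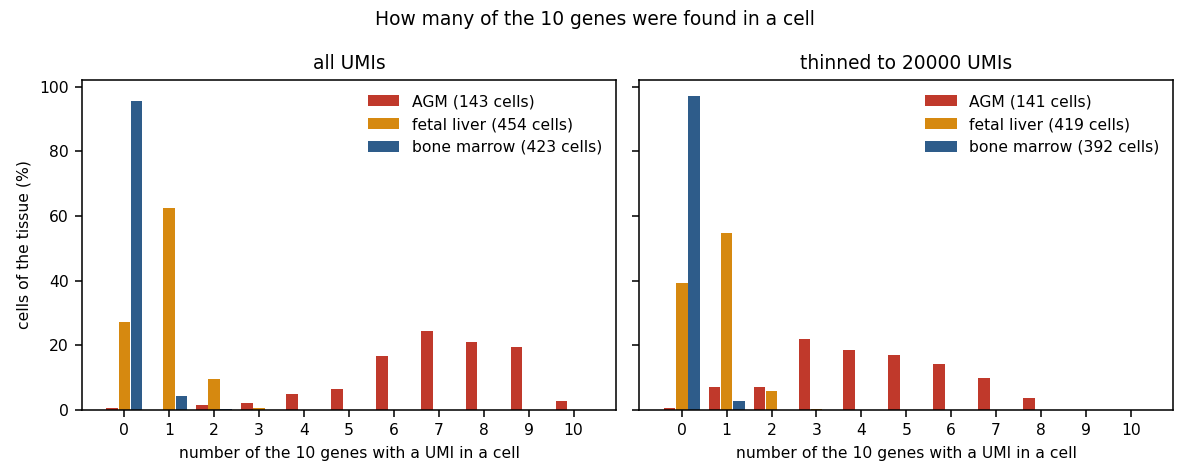
Number of the 10 genes with a UMI in a cell, as a percentage of the cells of each tissue, over all UMIs (left) and after thinning to 20000 UMIs (right). AGM cells centre on 7 genes over all UMIs and on 4 after thinning, and no cell of fetal liver or bone marrow has more than 3.

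Co-detection was counted for the 45 pairs of members in the thinned AGM cells of both plates and set beside the product of the single shares within each plate. In both plates 17 pairs occurred together more often than that product, 2 less often, and 26 did neither. The pairs of Tagln are all among the 26. No thinned cell of plate 2 held Tagln, so its pairs could not lie above or below in both plates. The largest ratios of the shared cells to the product among the 17 were those of Edn1 with F10 (1.505), Nrep (1.372) and Ddah1 (1.365), followed by Crip2 with Ddah1 (1.319). Edn1 and F10 were found together in 20 cells where the product gave 13.3 (15 against 11.2 in plate 1 and 5 against 2.07 in plate 2). Crip2 and Ddah1 met in 38 cells against 28.8, and Tspan18 and Crip2 in 62 against 51.2. Edn1 exceeded the product in both plates with 6 partners, namely Tspan18, Crip2, Cnn3, Ddah1, Nrep and F10. Put as shares, 80.6% of Edn1 cells held Tspan18, while 27.8% of Tspan18 cells held Edn1. Ddah1 and Nrep met in 23 cells against 17.7.

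Acta2 exceeded the product in both plates with 2 partners, Ddah1 (19 cells against 15.5) and F10 (22 against 18.3). It shared 9 cells with Edn1, where the product gave 9.46, and 14 with Nrep, where it gave 14.9. With Crip2 it shared 26 against 24.4, and with Tspan18 30 against 27.5, plate 2 lying at or below the product for both. Its contractile partner Tagln met it in 4 of the 6 thinned Tagln cells, against 1.83, all in plate 1. Crip2 with Mogat2 (41 against 44.3) and Cnn3 with Ddah1 (41 against 42.5) lay slightly below in both plates. No test was made, and the excess of a pair in a plate was often a few cells.

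**Figure D4:**
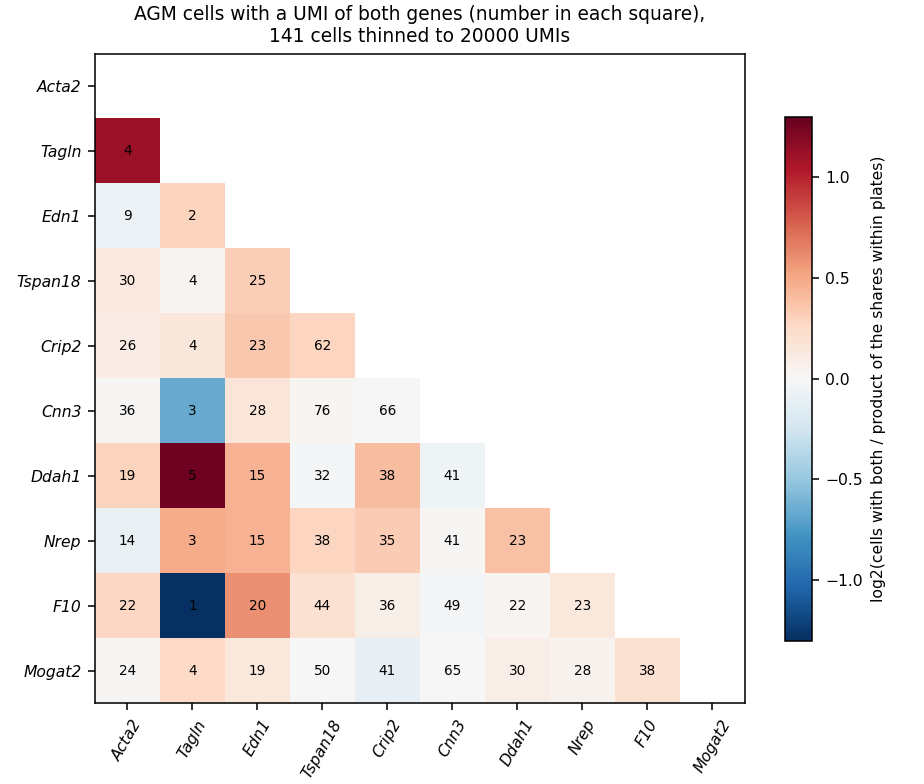
AGM cells with a UMI of both genes after thinning to 20000 UMIs; numbers are cells and colours the log2 ratio to the product of the shares within plates. Edn1 with F10 (20 cells) and Crip2 with Ddah1 (38 cells) are redder than the near-white squares of Cnn3 with Mogat2 (65 cells), and Tagln's column rests on 6 cells.

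Over 5411 genes found in at least 20% of thinned AGM cells, the genes most like each member were ranked by the mean of Spearman's rho within plates (95 and 46 cells). Crip2 was most like Cavin3 (rho 0.59 and 0.58), a coat protein of caveolae, then Nrp1 (0.51 and 0.55), a receptor for VEGF and semaphorins, and Dpysl3 (0.39 and 0.55). Tspan18 was most like Nrp1 (0.37 and 0.64), Crip2 (0.44 and 0.45) and Ecscr (0.32 and 0.55), an endothelial surface protein. For Edn1 the list was Nrp1 (0.44 and 0.45), Cgnl1 (0.35 and 0.50) and Anxa2 (0.42 and 0.41). F10 was most like Cldn5 (0.36 and 0.49), the endothelial tight junction protein, Clec4e (0.39 and 0.44) and Procr (0.32 and 0.49), the endothelial protein C receptor. Nrp1 thus led or followed for 3 members.

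Likeness was lower for the remaining members. Ddah1 came nearest to Mfap2 (mean rho 0.39), Crip2 (0.38) and the arterial connexin gene Gja4 (0.34). Nrep came nearest to S1pr1 (0.35), Cdk16 (0.34) and the VEGF receptor gene Kdr (0.34). Acta2 reached 0.31 with Coq4 and 0.29 with Akap8l and Atp5d, and Mogat2 reached 0.30 with Ube4a, 0.29 with Secisbp2 and 0.28 with Por. In sparse counts such weak values are no finding. Cnn3 reached 0.37 with Cnot6l, 0.33 with Cul2 and 0.32 with Atpaf2. Tagln was in too few thinned cells to be ranked. The median of a member's mean rho with the other ranked members ranged from 0.03 for Cnn3 to 0.19 for Crip2, with 0.06 for Acta2. For Crip2 the single values ran from -0.13 to 0.45.

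Markers of other cells were read beside the members. All 12 endothelial markers were found in AGM, with a median of 11 per cell (9 thinned) and a summed level of 2440 to 2986 CPM by plate, against 1058 to 1260 in fetal liver and 555.2 to 765.6 in bone marrow, where Cdh5 and Plvap were at 0. Cdh5, the junctional cadherin of endothelium, had a UMI in 97.2% of AGM cells, 4.63% of fetal liver cells and no bone marrow cell. The 12 blood stem cell markers occurred in all tissues, with medians of 9, 7 and 6 per cell. Of the mural and mesenchymal markers 10 of 12 had a UMI in AGM, at a summed 8.83 to 14.5 CPM, within the range of bone marrow plates (6.16 to 20.2 CPM). Among them Cspg4 and Col3a1 were at 0 and Pdgfrb was found in 1 AGM cell. The most frequent in AGM was Notch3, in 16 of 143 cells (11.2%, against 4.0% in fetal liver and 1.4% in bone marrow). Twist1 followed in 8 cells, with 73 of its 80 UMIs in 1 cell. Not all had this order: Postn was in 2.10% of AGM cells against 12.1% in fetal liver. At least 1 marker of the list was found in 39 of 143 AGM cells. The numbers were 82 of 454 in fetal liver and 44 of 423 in bone marrow. These counts are over all UMIs, of which an AGM cell had more. Leaving out the 7 AGM cells with at least 2 mural or mesenchymal markers kept 9 of the 10 genes at least 10-fold above both tissues. This outcome was nearly fixed in advance, because the genes were chosen for that excess and few cells were left out. AGM cells with 1 such marker stayed in. Erythroid markers (7 of 8 with a UMI) summed to 148.6 to 218.8 CPM in the AGM plates, 36.1 to 2156 in fetal liver and 139.4 to 375.9 in bone marrow. Macrophage markers (7 of 8) summed to 80.1 to 93.7 CPM in AGM, above every plate of fetal liver (39.3 to 60.7) and bone marrow (18.9 to 78.2). Fcgr3 led them, with 1463 UMIs in 75.5% of AGM cells, and C1qa was at 0. Most of the AGM sum was Fcgr3, at 60.15 CPM over all AGM cells, against 0.856 in fetal liver and 1.14 in bone marrow. Csf1r, Adgre1 and Cx3cr1 were also highest in AGM. Cd68, C1qb and Mrc1 were lowest there, Cd68 at 16.7 CPM against 41.4 in fetal liver and 40.4 in bone marrow. Nephric and epithelial markers (6 of 7) summed to 168.8 to 194.6 CPM in AGM, 47.3 to 90.4 in fetal liver and 176.2 to 246.6 in bone marrow, with 4272 of the AGM UMIs from Krt18. The part of these lists in the members' levels was not tested.

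Endothelial markers were read beside the members cell by cell. Of 95 AGM cells with Acta2, 97.9% had Cdh5, against 95.8% of 48 cells without it. After thinning these shares were 67.4% and 66.3%. All 13 Tagln cells held Cdh5, as did 96.9% of cells without Tagln, and after thinning 3 of 6 Tagln cells held it (50%), against 67.4% of the others. Mogat2 had the same order as Tagln after thinning (65.4% against 68.25%), while for the remaining members Cdh5 was more frequent in cells with the gene. Within plates the number of members per thinned cell went with the number of endothelial markers at rho 0.41 (95 cells) and 0.34 (46 cells). The part of these markers in the members' levels was not tested. Runx1, the transcription factor needed for blood formation from endothelium, had a UMI in 98.9% of Acta2 cells and 83.3% of cells without Acta2, and in 81.4% and 64.3% after thinning. Tagln had the same order after thinning, with 83.3% (5 of 6 cells) against 68.9%. For the other 8 members Runx1 was less frequent in thinned cells with the gene, for example 65% against 72.8% for F10 and 67.8% against 72.5% for Tspan18. The gap was small for some, as for Cnn3 with 69.2% against 70.8%. Over all UMIs the order of these 8 was the reverse, for example 95.6% against 86.2% for F10 and 95.4% against 75% for Tspan18.

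Ptprc encodes CD45, a surface phosphatase of blood cells, and was found in 53 of 143 AGM cells (37.1%). After thinning it was found in 11.2% of cells with Crip2 and 36.1% of cells without it (12.3% and 44.7% in plate 1, 8.70% and 21.7% in plate 2). Ddah1 showed the same order, with 11.8% against 27.8%, as did F10, with 13.3% against 28.4%, both in each plate. Plate 2 held few Ptprc cells, 2 with and 5 without Crip2, 1 and 6 for Ddah1, and 2 and 5 for F10. For Mogat2 the plates went opposite ways, with 30.2% against 19.0% in plate 1 and 12% against 19.0% in plate 2. So did those of Tspan18 (17.7% against 39.4%, then 17.9% against 11.1%) and Nrep (14.7% against 31.1%, then 20% against 12.9%). Cells with Acta2 had Ptprc at 24.1% against 25.8% in plate 1 and 7.14% against 18.7% in plate 2. These shares were not tested.

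Genes that share a pathway or family with the members, and are not members, were compared by edgeR's quasi-likelihood test with Benjamini-Hochberg adjustment over all 15472 genes. Of 112 such genes in 7 lists, 92 were tested. In fetal liver against AGM 5 were lower and 5 higher, where 1.91% and 2.92% of all genes were called. In bone marrow against AGM 15 were lower and 8 higher, where 3.63% and 5.29% of all genes were called. Bone marrow against fetal liver gave 8 lower and 2 higher, where the shares of all genes were 2.06% and 2.68%. The median log2 fold change of the 92 genes was -0.43, -0.50 and -0.22 in these comparisons, beside 0.05, 0.04 and 0.00 over all tested genes. The comparisons share libraries and are not independent of each other. The lists were chosen with earlier results of these data known, so their counts and medians beside those of all genes are no independent support. Without fetal liver plate 4 the number of calls among these genes fell to 4, 9 and 3.

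Contractile genes were lower outside AGM wherever they passed the test. Of 23 listed, 18 were tested. Myh11, Cnn1, Des, Lmod1 and Myocd were not, having too few counts or no matching symbol. Of the 18 tested, 2 fell in fetal liver and 4 in bone marrow against AGM, and none rose (0 also by DESeq2 and 0 at an unadjusted p under 0.05 in edgeR). DESeq2 called 1 and 3 falls, and not Myl9 in either comparison. Myl9, the regulatory light chain of smooth muscle myosin, had 61.7 CPM in AGM, 2.34 and 0 in the fetal liver origins, and 0.0397 and 0 in bone marrow. Its log2 fold change was -5.65 ± 1.07 (approximate standard error) in fetal liver (adjusted p = 0.00221, edgeR), a call made in 19 of 22 alternative analyses and lost without AGM plate 1 (adjusted p = 0.194). The fetal liver UMIs of Myl9 all came from plate 3, so that without it the level there was 0 and the fitted fold change is no bound. Its ratio of AGM to bone marrow was 1885 (interval 338 to 74486; adjusted p = 5.39e-05, edgeR). Cald1, the actin-binding caldesmon, had 76.6 CPM in AGM, 1.23 and 2.03 in fetal liver and 0.794 and 0 in bone marrow (log2 fold change -5.56 ± 0.79, adjusted p = 0.000117, and -7.13 ± 0.86, adjusted p = 8.72e-06), and it passed in all 22 alternative analyses of both.

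Tpm4, a tropomyosin of non-muscle cells, was the contractile gene that followed Cnn3 in staying in fetal liver. Its level was 187 CPM in AGM, 104 and 77.0 in fetal liver, and 7.62 and 12.5 in bone marrow. It fell in bone marrow against AGM (-4.26 ± 0.35, adjusted p = 3.53e-08) and against fetal liver (-3.21 ± 0.31, adjusted p = 8.61e-07). Cnn2, a calponin gene named here after its values were seen, fell 1.97-fold in bone marrow against AGM (adjusted p = 0.0171), a call lost without fetal liver plate 4. Of the 5 tested kin of Tagln and Crip2, the LIM-protein gene Csrp2 was the one that passed, lower in bone marrow than in AGM (-1.53 ± 0.27, adjusted p = 0.000746, and 0.0765 without fetal liver plate 4) and than in fetal liver (-1.74 ± 0.24, adjusted p = 8.17e-05). Tagln2, a transgelin of non-muscle cells, had 694 CPM in AGM, 618 and 713 in fetal liver, and 708 and 843 in bone marrow (fetal liver against AGM -0.06 ± 0.25, adjusted p = 0.95).

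Around Edn1 and Ddah1, 12 genes of endothelin and nitric oxide signalling were tested. Ece1, the protease that releases active endothelin, had 120 CPM in AGM, 26.7 and 25.0 in fetal liver, and 34.1 and 19.6 in bone marrow. It fell by 2.21 and 2.15 on the log2 scale (error 0.40 in each; adjusted p = 0.00142 and 0.00113), calls lost without fetal liver plate 4 (adjusted p = 0.058 and 0.095). Cav1, the caveolar protein that binds nitric oxide synthase, had 19.9 CPM in AGM, 3 UMIs in fetal liver and none in bone marrow, where AGM was at least 202-fold higher (adjusted p = 0.0044, and 0.0654 without fetal liver plate 4). Its fetal liver call (ratio 182, interval 62.0 to 886; adjusted p = 0.0252) was made in 12 of 20 alternative analyses. Prmt1, which methylates arginines in proteins and so feeds the pool of dimethylarginine, had 230 CPM in AGM and 122 and 114 in bone marrow (adjusted p = 0.018, lost without fetal liver plate 4 and without bone marrow plates 1 or 5). Ddah2, the second enzyme of Ddah1's kind, had 103 CPM in AGM, 134 and 136 in fetal liver, and 64.2 and 70.0 in bone marrow, lower in bone marrow than in fetal liver (adjusted p = 0.0146, lost in 4 of 22 alternatives).

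Coagulation genes around F10 gave 1 fall in fetal liver and 3 in bone marrow against AGM, of 13 tested. No rise was called, nor by DESeq2, and 0 rises had an unadjusted p under 0.05. Vwf, the platelet-binding von Willebrand factor, had 120 CPM in AGM, 20.7 and 20.2 in fetal liver, and 10.2 and 4.10 in bone marrow. It fell in fetal liver (-2.55 ± 0.47, adjusted p = 0.00165, and 0.054 without fetal liver plate 4) and in bone marrow (-4.01 ± 0.49, adjusted p = 9.19e-06, kept in all 22 alternatives). Tfpi, the inhibitor of the tissue factor pathway that acts on the active form of factor X, had 110 CPM in AGM and 43.8 and 22.7 in bone marrow (adjusted p = 0.00568, and 0.113 without fetal liver plate 4). Procr had 313 CPM in AGM, 237 and 220 in fetal liver, and 78.4 and 162 in bone marrow (bone marrow against AGM, adjusted p = 0.00559, and 0.144 without fetal liver plate 4).

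None of the tested tetraspanins, which leave out the member Tspan18, passed as lower than in AGM in both tissues, though some were highest in AGM by level. Of 23 tested, 5 were higher and none lower in fetal liver against AGM (0 lower by DESeq2 and 1 at an unadjusted p under 0.05 in edgeR), and 6 were higher and 3 lower in bone marrow against AGM. Cd37, a tetraspanin of leukocytes, had 18.5 CPM in AGM, 88.6 and 103 in fetal liver, and 108 and 123 in bone marrow (2.37 ± 0.34, adjusted p = 0.000119, and 2.65 ± 0.34, adjusted p = 2.31e-05). Tspan32, which belongs to haematopoietic cells too, had 84.8 CPM in AGM and 282 to 361 CPM in the other origins (adjusted p = 0.000293 and 6.23e-05). Cd53, another leukocyte tetraspanin, had 29.2 CPM in AGM and 117 and 102 in fetal liver (1.90 ± 0.34, adjusted p = 0.00142, lost without AGM plate 1 and without fetal liver plate 4). Cd63, a tetraspanin of late endosomes, had 271 CPM in AGM, 288 and 262 in fetal liver, and 607 and 577 in bone marrow (bone marrow against fetal liver 1.11 ± 0.20, adjusted p = 0.0016, and 0.175 without fetal liver plate 4). Tspan8 resembled Cnn3 in staying in fetal liver, with 561 UMIs in AGM, 14.4 and 32.6 CPM in fetal liver and 1 UMI in bone marrow (AGM over bone marrow 611, interval 109 to 24183; adjusted p = 7.69e-06). Tspan6 fell in bone marrow, from 202 CPM in AGM to 51.3 and 54.9 (adjusted p = 3.82e-05).

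Among 7 tested acylglycerol genes, the pathway of Mogat2, 1 passed in bone marrow against AGM and none in fetal liver against AGM (0 by DESeq2 and 0 at an unadjusted p under 0.05 in edgeR). Pnpla2, a triglyceride lipase and the most abundant of them, had 53.5 CPM in AGM and 69.9 and 82.6 in fetal liver (adjusted p = 0.497). Agpat2, an acyltransferase of phosphatidic acid synthesis, was higher in bone marrow (56.6 and 75.2 CPM) than in AGM (16.9 CPM; adjusted p = 0.0132), a call lost without fetal liver plate 4 and without bone marrow plates 1 or 5. In the TGF-beta pathway, which drives contractile genes in many cells, 14 genes were tested and none passed in fetal liver against AGM by edgeR, 4 having an unadjusted p under 0.05, while DESeq2 called 1. Smad2, the most abundant of them, had 31.0 CPM in AGM and 33.2 and 42.2 in fetal liver (adjusted p = 0.858). Acvrl1, an endothelial receptor of that pathway, had 27.2 CPM in AGM, 2.96 and 2.30 in fetal liver and 1 UMI in bone marrow (AGM over bone marrow 830, interval 149 to 32832; adjusted p = 0.000654). Tgfbi, a matrix protein that the pathway induces, went the other way, from 3.46 CPM in AGM to 21.5 and 34.4 in bone marrow (adjusted p = 0.00958, and 0.134 without fetal liver plate 4).

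**Figure D5:**
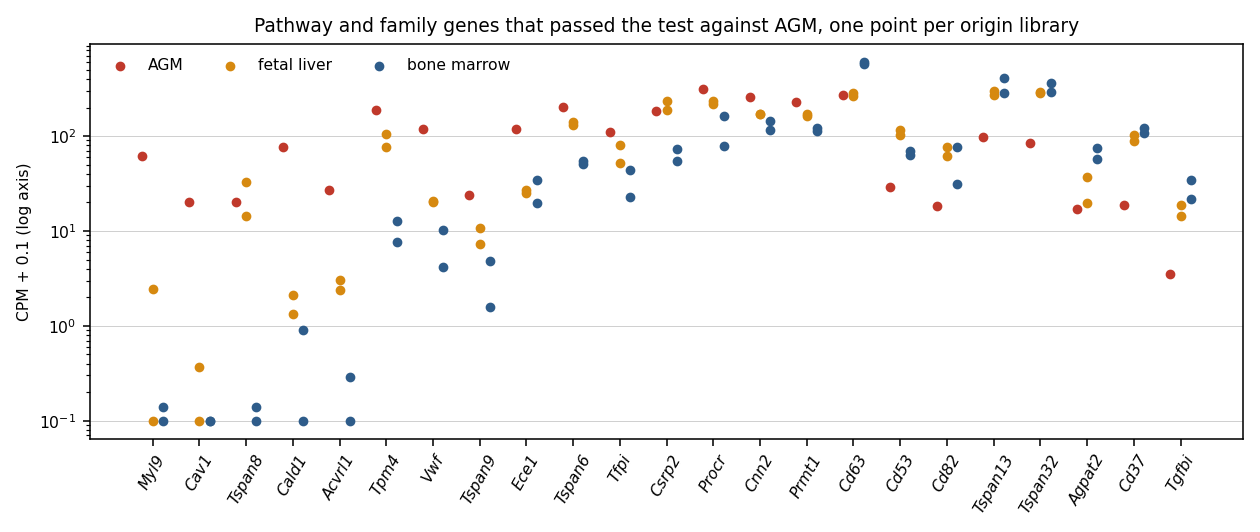
CPM (with 0.1 added, log axis) of the pathway and family genes called against AGM in fetal liver or bone marrow, one point per origin library. Myl9, Cav1, Cald1 and Acvrl1 are high in AGM and near the bottom in bone marrow, while the leukocyte tetraspanin Cd37 is lowest in AGM at 18.5 CPM.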

How the data were processed

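Cells were sorted singly into 96-well plates, nuclei were taken away on beads and the cytoplasmic RNA was read by scSTRT-seq, per the labels' protocols. The authors deposited UMI counts per gene symbol and well, 1 table per plate, not normalized. The submitters' processing notes name mm10, featureCounts, SAMtools and UMI-tools. No source used here gives their versions, the annotation or whether counting used strand.

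Wells with 1000 or more genes, 3000 or more UMIs and under 20% mitochondrial UMIs were kept as cells, 1020 of 1152 wells. No doublet caller was run, since wells received single cells. Counts were summed over the plates of each origin code into 5 libraries (1 AGM, 2 fetal liver, 2 bone marrow) and fitted together in edgeR 4.0.16 (R 4.3.3): TMM, filterByExpr, quasi-likelihood test, Benjamini-Hochberg adjustment over 15472 genes, a call at 0.05. With 1 AGM library and 2 residual degrees of freedom, AGM was assumed to vary like the other tissues. An error given after a log2 fold change is its ratio to the root of the F statistic and only approximates a standard error. DESeq2 1.42.0 was an alternative.

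Member genes and gene lists were chosen with earlier results of these data known. Members were therefore not tested, and calls among the listed genes are no independent evidence. Named are all members, up to 3 called genes with the smallest adjusted p per list and comparison (or the most abundant where none was called) and the 3 genes most like each member found in at least 20% of thinned AGM cells, which leaves out Tagln. Cnn2, also named, was chosen after its values were seen. A ratio against 0 UMIs uses a floor of 3 UMIs over the tissue, and one against 1 to 3 UMIs has an exact 95% counting interval. Both kinds pool UMIs and scaled library sizes over origins, while other ratios are of levels averaged over origins. Intervals of shares are exact (Clopper-Pearson), and all intervals cover counting error only. The test was tested on simulated data.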

Additional observations from a re-analysis of the deposited data

Results flagged for a closer look

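For 15 groups of 5 plates with a UMI, each member's CPM was checked for a plate far from the rest (Dixon's test at 95%, critical value 0.71), and 9 groups had one. Chance alone gives about 1 group in 20, but the test assumes a spread that near-empty plates do not have: in most of these groups the other plates were at or close to 0. All plates named stood above the others of their tissue. Crip2 stood at 2.83 CPM in bone marrow plate 1 (27 UMIs in 1 cell) and at 1.23 CPM in fetal liver plate 4 (9 of 10 UMIs in 1 cell). Edn1 stood at 8.02 CPM in bone marrow plate 5, where 28 UMIs sat in 1 cell, and at 0.246 CPM in fetal liver plate 4. Ddah1 stood at 5.93 CPM in fetal liver plate 1, with 39 UMIs in 1 cell. Tagln and Tspan18 each stood at 0.591 CPM in fetal liver plate 5, from 2 UMIs. Acta2 and Tspan18 each stood at 0.101 CPM in bone marrow plate 1, from 1 UMI.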

How the results depend on the processing

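No paired analysis was possible because the plates of different tissues come from different origin codes and their numbers only follow accession order. Among pathway and family genes, 10 were called in fetal liver against AGM, 23 in bone marrow against AGM and 10 in bone marrow against fetal liver. Leaving out 1 plate at a time gave 4 to 11, 9 to 25 and 3 to 10 calls. The lowest of each came without fetal liver plate 4 (4, 9 and 3), and without bone marrow plate 5 the last was 6. Without bone marrow plates 1 to 3 the counts of fetal liver against AGM and of bone marrow against fetal liver rose to 22 and 18, and without bone marrow plates 4 and 5 to 20 and 18. Without fetal liver plates 1 to 3 bone marrow against fetal liver gave 5. The cause of these moves was not tested. Another scaling (DESeq2 size factors), DESeq2, no filter, stricter cells, plates as libraries and leaving out AGM cells with at least 2 mural or mesenchymal markers (chosen after seeing the data) kept each count within 1.5 times. Named pathway genes that were called kept their direction in all alternatives, and 75 of their values lost the call. Tagln2, not called, turned from -0.06 to 0.03 (log2, fetal liver against AGM) without fetal liver plates 1 to 3.

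The share of AGM cells with at least 5 members was 90.9% and became 44.7% and 33.3% with cells thinned to 20000 and 10000 UMIs, and 74.8% with 2 UMIs asked of each gene. By plate it was 89.5% and 93.7%. Pairs above the product of shares in both plates numbered 17 in thinned cells, 32 over all UMIs, where depth differs between cells, and 22 with at least 2 UMIs. Members at least 10-fold above both tissues numbered 9, and 7 without fetal liver plate 4. With 1 AGM origin, origin cannot be told apart from tissue.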
